A study of Mus musculus with 6 samples.

Results

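The genes described here are 10 genes of VEGF and angiopoietin signalling, the growth factor systems of vascular endothelium, chosen by their symbols from the 24964 genes of a mouse uterus RNA sequencing table. They are 4 ligands (Vegfa, Vegfc, Angpt1 and Angpt2), 4 receptors (Flt1, Kdr, Flt4 and Tek) and 2 reference genes of endothelial cells (Pecam1 and Cdh5). All 10 were found in the table, and 9 reached the mean of 1 FPKM needed to enter the test, Angpt1 being the exception. Uterine tissue around the implantation sites was taken on day 13 of mouse gestation, and 6 libraries were sequenced, 3 control and 3 labelled as lacking PGR, the receptor of progesterone, in the myometrium (the muscular wall). The strain, the age of the mice, the genotype of the controls, the Cre driver or allele behind the knockout and the number of animals per library are not stated in the labels. Separate animals for the libraries are not stated either, so p-values measure how far the 6 libraries spread, and that spread may be technical.

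VEGF ligands and their receptor tyrosine kinases drive the sprouting and permeability of vessels. VEGF-A binds VEGFR1 (Flt1), which holds the ligand tightly but signals weakly, and VEGFR2 (Kdr), the main signalling receptor of blood vessel endothelium. VEGF-C binds VEGFR3 (Flt4), the receptor of lymphatic endothelium. Angiopoietin 1 activates the receptor TIE2 (Tek) and steadies vessels, while angiopoietin 2 is a context-dependent antagonist of it, released by endothelium during remodelling. In the pregnant uterus these systems act as the decidua and the vessels of the implantation site grow.

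Values are FPKM, in which the fragments of a gene are divided by its length and by the size of the library, so levels can be compared between genes. FPKM summed to between 357126 and 377091 per library. The depth of single libraries is unknown, but on short genes with 1 annotated transcript the lowest values piled up at 0.0271 to 0.0273 FPKM for 1 read on 1 kb in every library, so a floor of 3 reads on 1 kb is 0.0813 to 0.0818 FPKM. Pgr itself checks the labels weakly. It was at 9.72, 8.33 and 12.1 FPKM across the controls, against 11.3, 12.4 and 7.73 FPKM across the other group (limma adjusted p = 0.91), and no label states which exon was removed. The second group is therefore called the libraries labelled deficient, and each direction rests on that label. In both groups the third library was the least like its partners (across genes, r = 0.982 and 0.983 for control 3 with controls 2 and 1, and 0.971 and 0.976 for deficient 3 with deficient 2 and 1, against 0.992 and 0.991 for libraries 1 and 2 of the groups). No batch is named in the labels.

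Across the 12500 genes tested, 3.34% passed a limma adjusted p of 0.05, and of the 9 genes of the set tested, 0 passed. With an unadjusted p under 0.05 there was 1, Vegfa, where 21.5% of all genes had such a p. The median difference of the 9, coded as labelled deficient minus control on the log2(FPKM + 1) scale, was 0.01, beside 0.06 for all genes tested. Among the 10 genes, the values of the groups did not overlap for Vegfa and Angpt1, both higher in the libraries labelled deficient, while 29.0% of the genes tested had groups apart, 20.8% with the labelled deficient group higher and 8.16% with it lower. With limma array weights 1 of the 9 passed, Vegfa, where 14.2% of all genes did. Without the third library of both groups, an alternative chosen after seeing the data, 0 of the 9 passed and 10.2% of all genes did.

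**Figure D1:**
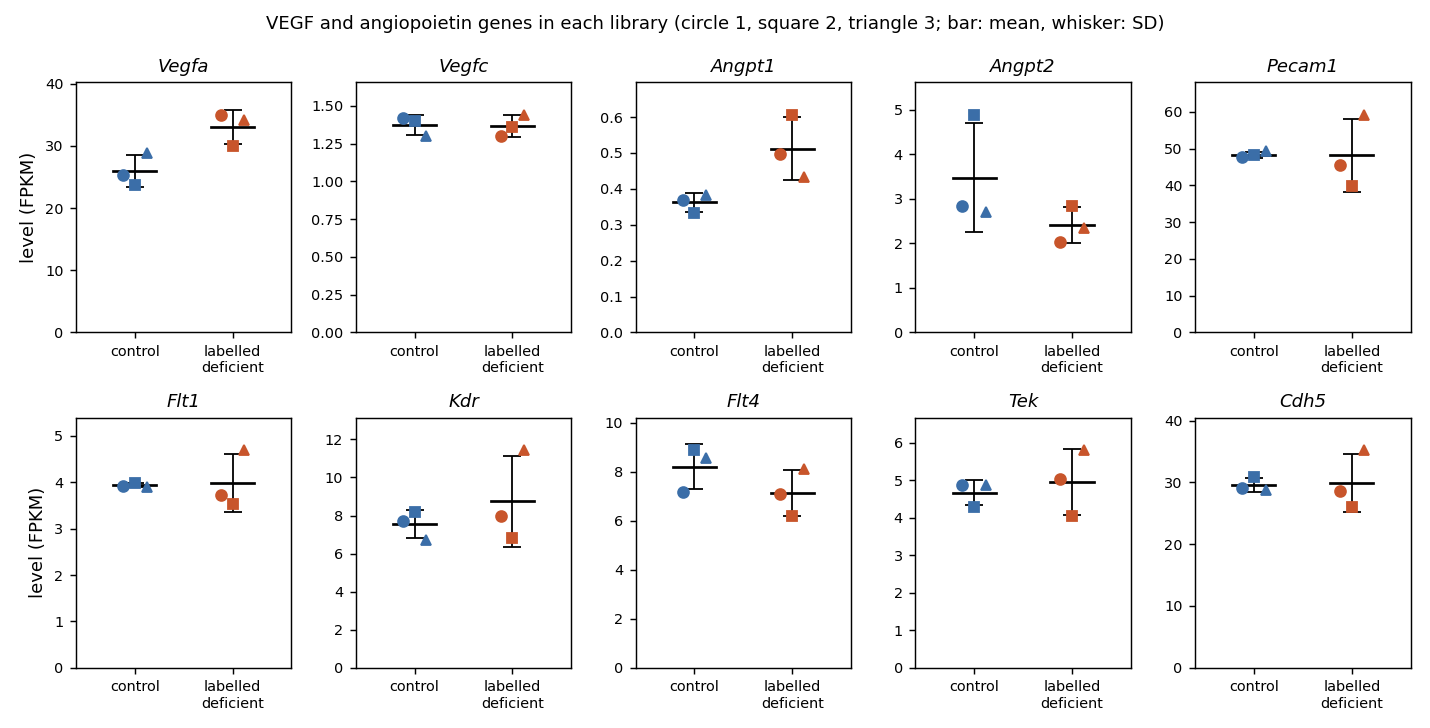
Level in FPKM (vertical axes, from 0, with a scale of its own per gene) of the 10 genes in the 3 control (blue) and 3 labelled deficient (orange) libraries, with the mean (bar) and SD (whisker). Vegfa and Angpt1 have groups that do not overlap, and deficient 3 (orange triangle) is the highest library for Pecam1, Cdh5, Flt1, Kdr, Tek and Vegfc.

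Among the 4 ligand genes of the set, Vegfa was the most abundant in every library. Vegfa (chromosome 17, 46016993 to 46032369, minus strand, GRCm38, the assembly also called mm10) encodes VEGF-A. It was at 25.3, 23.8 and 28.8 FPKM across the controls, against 35.0, 29.9 and 34.1 FPKM across the libraries labelled deficient. Every library labelled deficient lay above every control, although the gap between control 3 and deficient 2 was small. The means were 26.0 ± 2.6 and 33.0 ± 2.7 FPKM (SD, n = 3 each), a ratio of 1.27. The log2 difference was 0.34 (SE 0.10, 95% confidence interval 0.10 to 0.57), and it did not pass after adjustment over all genes (limma adjusted p = 0.12, range over the alternatives 0.026 to 0.33). By exact permutation, two-sided, p was 0.1, the smallest that 3 against 3 allow. The sum over Vegfa takes in 13 annotated transcripts, so its isoforms cannot be told apart.

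Vegfc (chromosome 8, 54077606 to 54187096) encodes VEGF-C, the ligand of VEGFR3. It was at 1.42, 1.40 and 1.30 FPKM across the controls, against 1.30, 1.36 and 1.44 FPKM across the libraries labelled deficient. The groups lay over each other, with a log2 difference of -0.005 (95% confidence interval -0.18 to 0.17, limma adjusted p = 0.98). That interval leaves room for a change of up to 0.18 on this scale in either direction.

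The differences of the 2 angiopoietins had opposite signs, and neither passed a test. Angpt2 (chromosome 8, 18690263 to 18741562) was at 2.83, 4.88 and 2.71 FPKM across the controls, against 2.04, 2.83 and 2.34 FPKM across the libraries labelled deficient. Control 2 was far above the other controls, and deficient 2, the highest of its group, lay between controls 1 and 3. The log2 difference was -0.37 (SE 0.19, 95% confidence interval -0.84 to 0.10, limma adjusted p = 0.33), and without control 2 it was -0.16.

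Angpt1 (chromosome 15, 42424723 to 42676977) was the lowest gene of the set, at 0.370, 0.334 and 0.384 FPKM across the controls, against 0.497, 0.606 and 0.433 FPKM across the libraries labelled deficient. The groups did not overlap, and the ratio of the means was 1.41 (0.363 ± 0.026 and 0.512 ± 0.087 FPKM, SD, n = 3 each, exact two-sided permutation p = 0.1, the smallest possible). If the authors' gene model is as long as the annotated exons together, these values stand for about 64.0 to 116 reads. Angpt1 was under the mean needed for the test. With no filter on low values its log2(FPKM + 1) difference was 0.15 and its limma adjusted p 0.22, on a scale that compresses values this low (1.63% of all genes passed in that fit).

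Because both angiopoietins bind the same receptor, their ratio was computed in each library. Angpt2 was 7.66, 14.6 and 7.05 times as abundant as Angpt1 in the controls. It was 4.10, 4.67 and 5.39 times as abundant in the libraries labelled deficient. All 3 ratios of the labelled deficient group lay below all 3 of the controls. On the log2 scale the ratio was 3.21 ± 0.58 across the controls and 2.23 ± 0.20 across the libraries labelled deficient (SD, n = 3 each), a difference of -0.98 (SE 0.35), that is 0.508 of the control ratio (exact two-sided permutation p = 0.1, the smallest possible). Without control 2 the difference was -0.65. On the log2(FPKM + 1) scale, which compresses low values such as those of Angpt1, it was -0.52. Both are smaller in size than the -0.98 above.

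**Figure D2:**
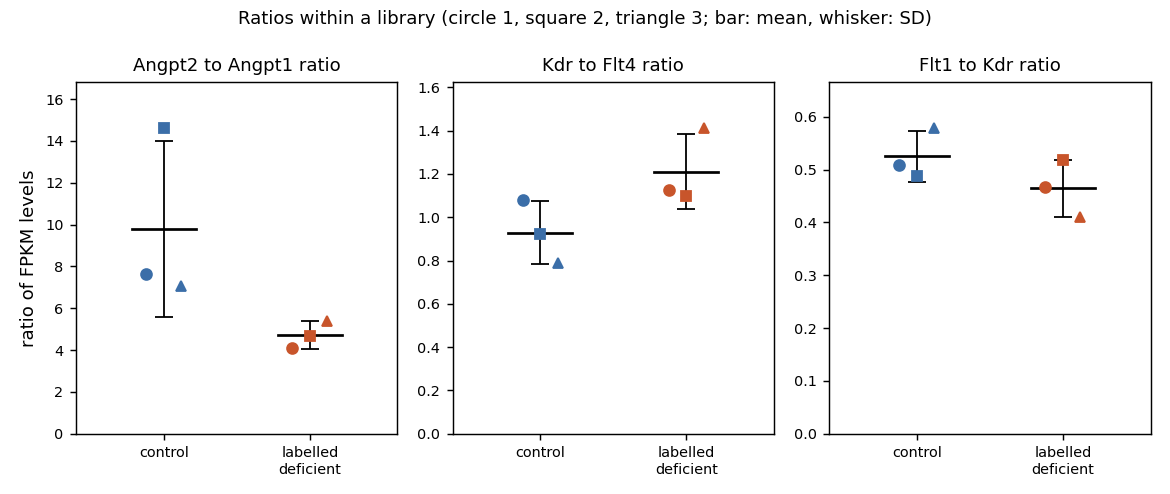
Ratios of FPKM levels within each library (vertical axes, from 0) for Angpt2 to Angpt1, Kdr to Flt4 and Flt1 to Kdr in control (blue) and labelled deficient (orange) libraries, with the mean (bar) and SD (whisker). The groups are apart for Angpt2 to Angpt1 (7.05 to 14.6 against 4.10 to 5.39) and for Kdr to Flt4 (0.787 to 1.08 against 1.10 to 1.41), and overlap for Flt1 to Kdr.

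The receptors spanned a narrow range of levels, and none of the 4 differed between the groups beyond the spread. Kdr (chromosome 5, 75932827 to 75978458), encoding VEGFR2, was at 7.72, 8.18 and 6.74 FPKM across the controls, against 7.99, 6.81 and 11.4 FPKM across the libraries labelled deficient. Deficient 3 was well above the other libraries, and the rest overlapped. Its log2 difference of 0.16 (95% confidence interval -0.26 to 0.58, limma adjusted p = 0.63) was -0.025 without deficient 3.

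Flt1 (chromosome 5, 147561604 to 147726011), encoding VEGFR1, was nearly constant in the controls, at 3.93, 3.99 and 3.90 FPKM. It was at 3.73, 3.53 and 4.69 FPKM across the libraries labelled deficient, so that these libraries lay on both sides of the controls. Its log2 difference came to 0.005 (95% confidence interval -0.23 to 0.24, limma adjusted p = 0.98), and it was -0.094 without deficient 3 and -0.0006 without control 3. It was also negative with median-of-ratios scaling (-0.051) and quantile normalization (-0.053). A level over the whole gene does not separate the membrane receptor from its soluble form.

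Tek (chromosome 4, 94739289 to 94874976), encoding TIE2, was at 4.87, 4.28 and 4.88 FPKM across the controls, against 5.02, 4.06 and 5.80 FPKM across the libraries labelled deficient. The second library was the lowest in both groups. On the log2 scale it differed by 0.06 (95% confidence interval -0.22 to 0.35, limma adjusted p = 0.80) and -0.038 without deficient 3.

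Flt4 (chromosome 11, 49609263 to 49652739), encoding VEGFR3, was at 7.16, 8.87 and 8.56 FPKM across the controls, against 7.11, 6.20 and 8.09 FPKM across the libraries labelled deficient. Deficient 3 lay among the controls and the other labelled deficient libraries below them, with control 1 close by. On the log2 scale its difference came to -0.18 (SE 0.11, 95% confidence interval -0.45 to 0.10, limma adjusted p = 0.41).

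VEGFR2 and VEGFR3 were also set against each other within each library. The Kdr to Flt4 ratio was 1.08, 0.922 and 0.787 across the controls and 1.12, 1.10 and 1.41 across the libraries labelled deficient. The groups did not overlap, though control 1 came close to deficient 1 and 2. In log2 terms the ratio differed by 0.38 (SE 0.18), that is 1.31 times the control ratio (exact two-sided permutation p = 0.1, the smallest possible), and it was 0.15 without the third library of both groups. The Flt1 to Kdr ratio was 0.509, 0.488 and 0.578 across the controls and 0.467, 0.518 and 0.410 across the libraries labelled deficient, with overlapping groups and a log2 difference of -0.18 (SE 0.12, exact two-sided permutation p = 0.3).

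The upstream sequences of Flt1, Kdr and Tek are shown because these receptor genes shared their highest library, and that of Vegfa because it is the tested gene of the set with groups apart. Each is the 250 bases before the start that RefSeq annotates, 5′ to 3′ on the gene's strand, from RefSeq on GRCm38.p6, where 6 of the 10 genes had an entry (these, Flt4 and Vegfc, but not Angpt1, Angpt2, Pecam1 and Cdh5). The start of Flt4 differs between annotations, and its window is not shown because all 250 bases lie in the first exon of the GENCODE gene model. The Kdr window overlaps the GENCODE gene by 3 bases. For Vegfa the upstream-most of its annotated starts is shown. Capitals mark matches on either strand to 4 short motifs, and no matches overlapped one another. GGGCGG is the GC box bound by the factor Sp1. AGGAAG is a form of the core that ETS factors bind. AGATAA is a binding site of the GATA factors. ACGTG is the core of the hypoxia response element.
Flt1, chr5:147726012-147726261, minus strand: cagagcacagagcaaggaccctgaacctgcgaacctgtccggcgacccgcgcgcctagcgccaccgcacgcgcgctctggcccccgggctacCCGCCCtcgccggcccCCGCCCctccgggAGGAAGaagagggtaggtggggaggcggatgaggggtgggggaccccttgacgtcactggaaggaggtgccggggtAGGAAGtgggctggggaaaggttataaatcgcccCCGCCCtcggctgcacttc
Kdr, chr5:75978456-75978705, minus strand: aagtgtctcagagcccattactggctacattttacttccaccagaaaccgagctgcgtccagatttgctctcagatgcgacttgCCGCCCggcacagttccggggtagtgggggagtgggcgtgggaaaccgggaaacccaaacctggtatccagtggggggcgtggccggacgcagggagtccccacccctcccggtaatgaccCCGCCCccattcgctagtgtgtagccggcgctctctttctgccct
Tek, chr4:94739039-94739288, plus strand: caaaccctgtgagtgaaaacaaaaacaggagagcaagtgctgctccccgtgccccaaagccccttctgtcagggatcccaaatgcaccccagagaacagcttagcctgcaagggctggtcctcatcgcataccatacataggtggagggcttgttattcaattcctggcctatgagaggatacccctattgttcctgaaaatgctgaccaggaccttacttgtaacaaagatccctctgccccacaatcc
Vegfa, chr17:46032378-46032627, minus strand: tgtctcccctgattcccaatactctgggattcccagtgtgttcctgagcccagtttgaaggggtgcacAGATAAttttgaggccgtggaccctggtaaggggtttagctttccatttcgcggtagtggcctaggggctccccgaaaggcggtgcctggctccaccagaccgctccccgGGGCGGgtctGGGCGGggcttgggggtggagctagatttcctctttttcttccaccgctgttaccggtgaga
Matches to GGGCGG stood in Flt1 (3), Kdr (2) and Vegfa (2) and in 32.7% of 32851 windows of the same length over all genes. Flt1 held 2 matches to AGGAAG, found in 29.5% of all windows. Vegfa held 1 match to AGATAA, found in 9.99%, and ACGTG, found in 16.6%, had no match in the 4 windows shown. The window of the other RefSeq start of Vegfa (chromosome 17, 46025164 to 46025413), of which 218 bases lie in GENCODE exons of the gene, held 1 match to ACGTG and 1 to GGGCGG. In Tek no letters matched any of the motifs. GC content was 70.4% in Flt1, 61.6% in Kdr, 59.2% in Vegfa and 51.2% in Tek, beside a median of 52.4% over all windows.

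Pecam1 and Cdh5 served as the reference for the amount of endothelial RNA. Pecam1 (chromosome 11, 106654217 to 106750628) encodes the adhesion molecule CD31, and Cdh5 (chromosome 8, 104101625 to 104144511) encodes VE-cadherin, the cadherin of endothelial junctions. Pecam1 was at 47.6, 48.2 and 49.2 FPKM across the controls, against 45.5, 39.8 and 59.2 FPKM across the libraries labelled deficient. Cdh5 was at 29.0, 30.9 and 28.8 FPKM across the controls, against 28.6, 26.0 and 35.2 FPKM across the libraries labelled deficient. In both genes the controls were close together, deficient 2 was the lowest library and deficient 3 the highest. The means of Pecam1 were 48.3 ± 0.8 and 48.2 ± 9.96 FPKM and those of Cdh5 29.6 ± 1.1 and 29.9 ± 4.8 FPKM (SD, n = 3 each). The log2 differences were -0.02 (95% confidence interval -0.36 to 0.31, limma adjusted p = 0.94) and 0.01 (-0.27 to 0.28, limma adjusted p = 0.99). Each took the other sign under at least one other scaling, Pecam1 at 0.021 after rescaling to equal sums and Cdh5 at -0.064 with median-of-ratios scaling. In bulk tissue, fewer cells of a type and less RNA per cell cannot be told apart.

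Ordered by mean level, the set ran Pecam1, Cdh5, Vegfa, Kdr, Flt4, Tek, Flt1, Angpt2, Vegfc, Angpt1. The ranges over the 6 libraries overlapped between Cdh5 and Vegfa, between Kdr and Flt4, between Tek and Flt1 and between Flt1 and Angpt2, and were apart for the other neighbours. Tek was above Flt1 in 6 of 6 libraries. Pecam1 lay above 91.4% of the genes tested, Vegfa above 85.0%, Kdr above 49.8% and Vegfc above 4.78%.

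Relative to the mean log2 level of Pecam1 and Cdh5 in the same library, Flt1 varied least. It was at 0.106, 0.103 and 0.104 of that reference in the controls and at 0.103, 0.110 and 0.103 in the libraries labelled deficient, a log2 difference of 0.015 (SE 0.032). Vegfa was at 0.681, 0.616 and 0.764 of the reference in the controls and at 0.970, 0.932 and 0.748 in the libraries labelled deficient. Deficient 3, with the most endothelial RNA by these genes, lay among the controls, so the groups overlapped (log2 difference 0.36, SE 0.15). Kdr differed by 0.19 (SE 0.11) and Flt4 by -0.19 (SE 0.10) against the reference. Over the 8 ligands and receptors the exact two-sided permutation p, with Benjamini-Hochberg adjustment for these 8, was between 0.48 and 1, in a design where the smallest unadjusted p is 0.1.

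The highest library was shared by much of the endothelial program. Of the 9 genes tested, deficient 3 was the highest library for 6 (all but Vegfa, Flt4 and Angpt2), where it was the highest for 24.2% of all genes tested. Deficient 2 was the lowest for 5 (Pecam1, Cdh5, Flt1, Tek and Flt4), beside 7.07% of all genes. A list of 28 other endothelial markers, all of them above the mean of 1 FPKM, showed the first pattern in 18 and the second in 7. The first was not particular to endothelial markers. Deficient 3 was also the highest for 12 of 23 tested genes that act downstream of the receptors and for 9 of 20 genes of oxygen sensing. Among 12 mural cell genes it was the highest for 3. These counts describe single libraries and are no test between the groups. Of the 28, 0 passed the limma threshold (2 had an unadjusted p under 0.05), and the median log2 difference was -0.01. Ecscr, an endothelial surface protein that modulates VEGF receptor signalling, was at 28.2, 30.0 and 23.9 FPKM across the controls, against 17.1, 19.8 and 20.7 FPKM across the libraries labelled deficient (limma adjusted p = 0.076). Vwf, the von Willebrand factor stored in endothelial granules, was at 3.82, 4.72 and 6.30 FPKM and at 7.89, 6.34 and 9.19 FPKM (limma adjusted p = 0.15). Ecscr passed with median-of-ratios scaling (limma adjusted p = 0.030), quantile normalization (0.044), array weights (0.011) and without the third library of both groups (0.025), and Vwf with array weights (0.028).

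**Figure D3:**
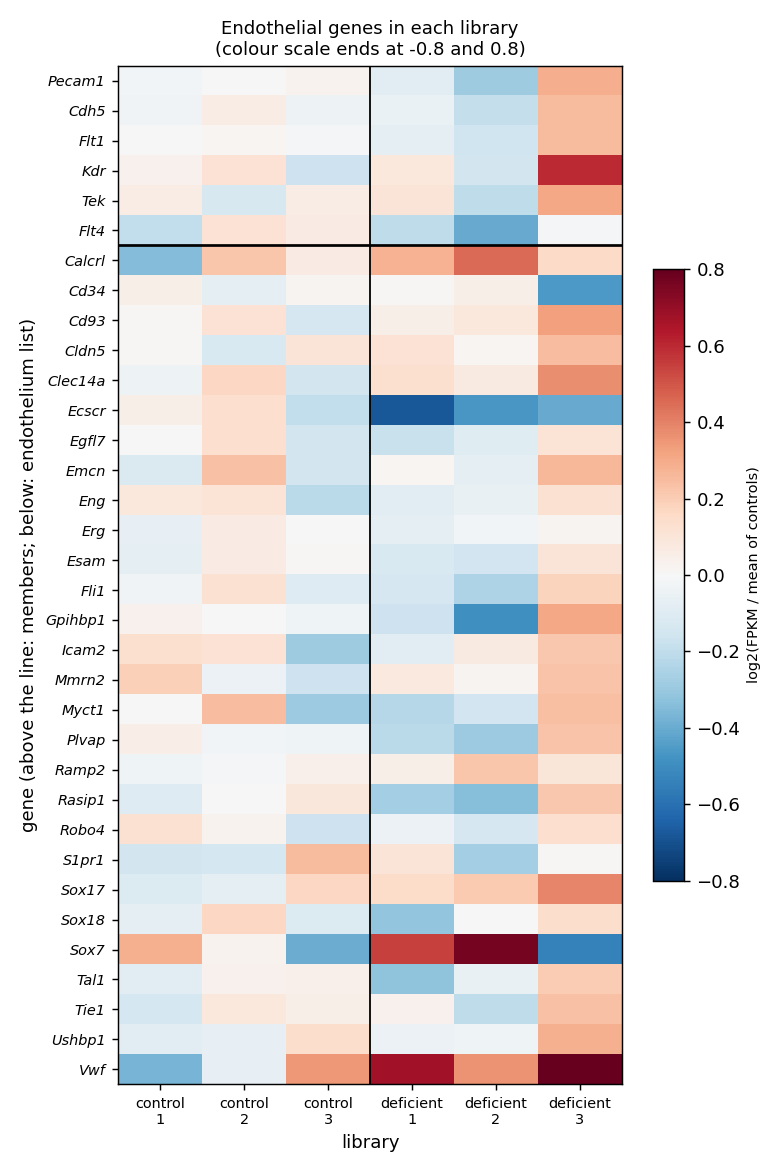
Each library's level divided by the mean of the controls, on the log2 scale (colour, red higher and blue lower), for 6 genes of the set (above the line) and 28 other endothelial markers (below). The column of deficient 3 is red for most rows, and the colour scale ends at 0.8, which 1 value, Vwf in deficient 3, exceeds.

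By likeness of pattern, the 5 genes closest to the mean of Pecam1 and Cdh5 over the 6 libraries were Edem2, Flt1, Cstf3, Btd and Slc2a1, with Pearson correlations of log2(FPKM + 1) between 0.975 and 0.997 among 8841 candidates. Among the other genes of the set, Kdr was at 0.872 (rank 139), Tek at 0.812 (rank 241), Flt4 at 0.669 (rank 649), Vegfa at 0.175 and Angpt2 at -0.051. The 5 closest to Vegfa were Ash1l, Zfp646, Zfp672, Acin1 and Fam193a, at between 0.991 and 0.997. With 6 points and 8841 candidates, values this high are a description, and the points share their libraries and groups.

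Among the other genes of the pathway, the ligand genes Pgf and Vegfd fell. In a list of 18 further ligands, receptors, coreceptors and modulators, 17 were tested, 2 fell, 0 rose (1.99% and 1.34% of all genes) and the median log2 difference was 0.02. Pgf (chromosome 12, 85166635 to 85177790) encodes placental growth factor, a ligand of VEGFR1. It was at 4.50, 6.48 and 4.18 FPKM across the controls, against 1.00, 1.54 and 1.37 FPKM across the libraries labelled deficient. The groups were far apart, with the control mean 3.88 times the other. On the log2 scale it fell by 1.38 (SE 0.16, limma adjusted p = 0.013) and no longer passed without control 1 (-1.44, limma adjusted p = 0.056).

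Vegfd (chromosome X, 164373378 to 164402650) encodes VEGF-D, which like VEGF-C binds VEGFR3. It was at 41.5, 58.4 and 45.9 FPKM across the controls, against 28.8, 21.3 and 17.9 FPKM across the libraries labelled deficient. In every library it was therefore above Vegfc, and its control mean was 2.15 times that of the libraries labelled deficient. Vegfd was also above Vegfa in every control, and below Vegfa in every library labelled deficient. The log2 difference was -1.08 (SE 0.20, limma adjusted p = 0.041). It lost its call after rescaling to equal sums (limma adjusted p = 0.051), with no filter (0.075), without the third library of both groups (0.061) and in each fit with 1 library left out except that without deficient 1 (0.059 to 0.13).

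Of the rest of that list, Sema3f, a class 3 semaphorin that binds neuropilin 2, was at 18.7, 18.9 and 23.9 FPKM across the controls, against 36.7, 44.8 and 29.5 FPKM across the libraries labelled deficient and did not pass (limma adjusted p = 0.061, chosen after its values were seen). Tie1, the partner receptor of TIE2, differed by 0.02, the coreceptor genes Nrp1 and Nrp2 by 0.09 and -0.10, and Vegfb by -0.13 on the log2 scale, with limma adjusted p between 0.27 and 0.93. These 4 were also chosen after their values were seen.

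Markers of other cell types were summed in the same libraries. For the counts below, 1.99% of all genes tested fell and 1.34% rose with limma. The summed level of 12 smooth muscle markers, of which 12 fell, was 8923 to 10832 FPKM in the controls and 3641 to 4265 FPKM in the libraries labelled deficient. Of these 12 genes, 5 passed without control 1 or control 2 and 8 to 12 without another library. That of 12 decidual markers, of which 9 were tested and 1 fell, was 248 to 538 FPKM and 138 to 177 FPKM. Prl8a2, a decidual prolactin family gene, carried much of that gap without passing (154.7, 354.6 and 60.4 FPKM against 5.44, 26.5 and 0.664 FPKM, limma adjusted p = 0.089), and without it, a choice made after its values were seen, the sums were 184 to 196 FPKM and 132 to 153 FPKM. Bmp2 and Wnt4 of the same list were higher in every labelled deficient library than in any control, Bmp2 not passing (limma adjusted p = 0.24) and Wnt4 being under the mean of 1 FPKM. That of 12 epithelial markers, of which 11 were tested and 2 rose, was 794 to 812 FPKM and 1064 to 1377 FPKM. Prom1, named after its values were seen, was part of that gap without passing. It was at 22.6, 113.6 and 25.2 FPKM against 177.8, 261.9 and 163.7 FPKM (limma adjusted p = 0.11). With 1 library left out, the decidual genes passing ran from 0 (without control 1, control 2, deficient 1 or deficient 2) to 2 (without deficient 3). For the epithelial genes it was 0 without control 3, deficient 1 or deficient 2, 1 without control 1 or control 2, and 5 without deficient 3. Of 14 trophoblast markers, 13 were under a mean of 1 FPKM and 5 were listed at 0 in every library (Psg23, Gcm1, Synb, Hand1 and Ctsq), with sums of 2.51 to 4.40 FPKM and 0.871 to 2.34 FPKM. The marker tested, Peg10, carried much of these sums and was lower in every labelled deficient library than in any control, without passing. It was at 1.72, 2.18 and 1.37 FPKM against 0.595, 0.887 and 0.414 FPKM (limma adjusted p = 0.058). The sums of 12 macrophage markers (1062 to 1262 FPKM and 1094 to 1224 FPKM), of 12 fibroblast markers (7735 to 8524 FPKM and 7240 to 7703 FPKM) and of 12 uterine natural killer cell markers (9.55 to 12.4 FPKM and 11.5 to 16.0 FPKM) are given in the same order. Tested were 12, 12 and only 4 of them, as 8 natural killer cell markers were under a mean of 1 FPKM. With limma 0 of the genes tested passed, with an unadjusted p under 0.05 for 0, 4 and 0. Of the natural killer cell markers, Gzmc was at 0.087, 0.262 and 0.32 FPKM against 0.784, 0.466 and 5.53 FPKM (limma adjusted p = 0.31). Its value in deficient 3 was part of the highest sum. Klrd1 was at 1.65, 2.32 and 1.19 FPKM against 1.66, 1.98 and 1.00 FPKM (limma adjusted p = 0.83). The part of these cell types in the differences of Pgf, Vegfd and Vegfa was not tested.

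**Figure D4:**
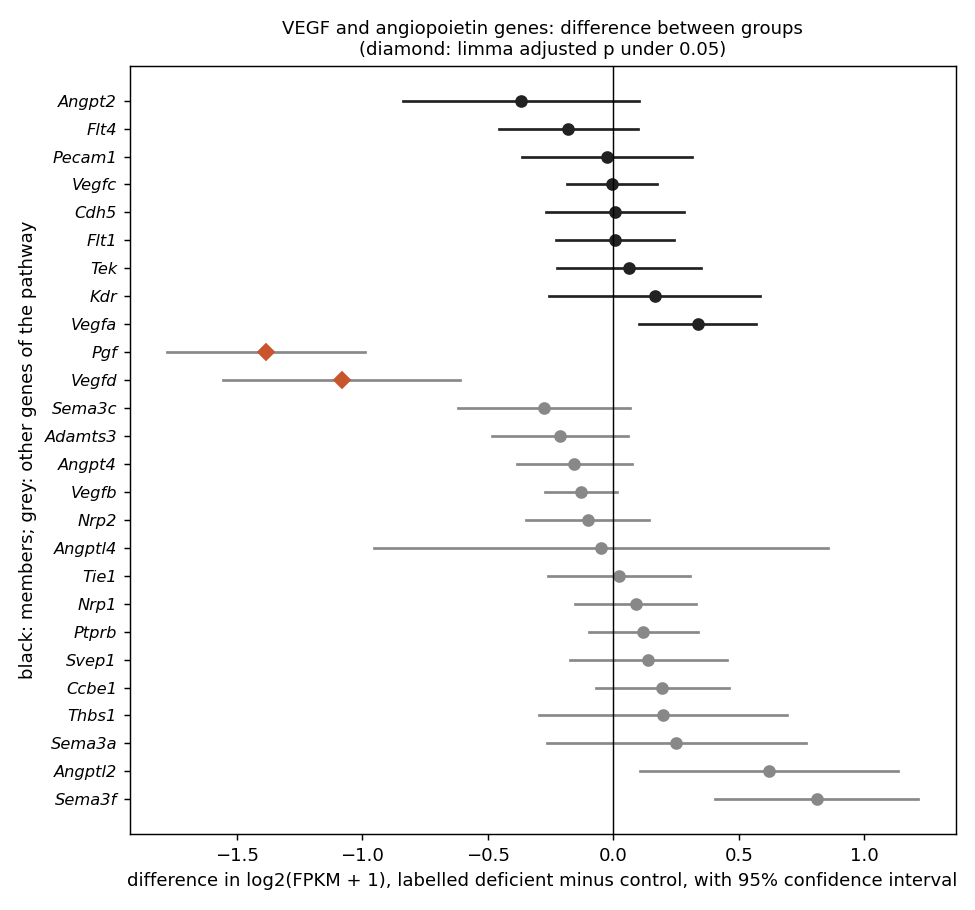
Difference in log2(FPKM + 1), labelled deficient minus control, with its 95% confidence interval (horizontal axis) for the 9 tested genes of the set (black) and 17 other genes of the pathway (grey). Pgf (-1.38) and Vegfd (-1.08) are the genes past the limma threshold (orange diamonds), and the interval of Vegfa runs from 0.10 to 0.57.

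Downstream of the receptors, 23 of 26 listed genes were tested, 1 rose and 0 fell, with a median log2 difference of 0.01. That is a share of the order of the 3.34% of all genes that passed, so the count is not a result about the list. The gene that rose was Foxo1 (chromosome 3, 52268336 to 52353221), a transcription factor that TIE2 signalling restrains in endothelium and that other uterine cells also express. It was at 25.1, 22.6 and 19.8 FPKM across the controls, against 37.4, 33.0 and 32.0 FPKM across the libraries labelled deficient (log2 difference 0.58, SE 0.11, limma adjusted p = 0.041). It lost its call in each of the 6 fits with 1 library left out (limma adjusted p 0.051 to 0.15) and with no filter (0.066).

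Vegfa is a target of the oxygen-sensing HIF pathway, and of 20 listed genes of that pathway, all of them tested, 1 rose and 0 fell, with a median log2 difference of 0.08. Over all genes 3.34% passed and the median was 0.06, so neither sets the list apart. Egln1 (chromosome 8, 124908587 to 124949324), the prolyl hydroxylase that marks HIF proteins for breakdown, was at 14.4, 14.9 and 15.3 FPKM across the controls, against 20.1, 19.4 and 19.9 FPKM across the libraries labelled deficient (log2 difference 0.39, SE 0.06, limma adjusted p = 0.020). Leaving out control 1, control 2, deficient 1 or deficient 2 ended its call (limma adjusted p 0.067 to 0.11).

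Lymphatic markers, which bear on Flt4, were tested for 7 of 10 genes, and 0 passed with limma (1 had an unadjusted p under 0.05). Their median log2 difference was -0.05, beside 0.06 for all genes tested. Lyve1, the hyaluronan receptor of lymphatic endothelium that macrophages also carry, was at 34.6, 61.6 and 30.8 FPKM across the controls, against 23.1, 32.2 and 19.1 FPKM across the libraries labelled deficient (limma adjusted p = 0.23). Pdpn, podoplanin, was at 31.3, 39.0 and 18.7 FPKM and at 19.6, 23.4 and 16.3 FPKM (limma adjusted p = 0.33). Log2 differences of the other lymphatic markers tested ran from -0.27 (Mmrn1) to 0.02 (Nr2f2). Prox1, the transcription factor that sets lymphatic identity, was under a mean of 1 FPKM (0.681 to 0.768), and Ccl21a was listed at 0 in every library.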

How the data were processed

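RNA from 6 uterine libraries was sequenced. The authors deposited FPKM values, 1 column per library. Build mm10 and the tools STAR 2.7.0f, cutadapt 2.7 and DESeq2 1.24.0 are named, with no role or order, in the submitters' processing notes. Not given in the sources used here: counting program, annotation, strand, FPKM formula and treatment of shared reads. Each of the 6 columns matched a label, and 0 others were present.

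limma 3.58.1 in R 4.3.3 (eBayes with trend) was run on log2(FPKM + 1) for the 12500 genes averaging 1 FPKM or more, with Benjamini-Hochberg adjustment over all of them and a threshold of 0.05. The log2 scale with a pseudocount of 1 understates changes of low genes. Ratios used log2 of FPKM without a pseudocount and an exact two-sided permutation test in SciPy 1.17.1. Before use, the fit was tested on simulated data. Genes named are the 10 of the set, Pgr and the 5 most similar in pattern. In lists not given as sums, up to 4 genes that passed or otherwise the 2 with the smallest p were named. In the lists of cell types given as sums, genes that passed were counted and not named. Some further genes were named after their values were seen. The set, the lists and the tests were chosen with earlier results of these data known. Alternatives were 3 scalings, no trend, a minimum of 5 FPKM or no filter, pseudocounts of 0.1 and 0.5, array weights, a replicate block and leaving out each library. Positions are from GENCODE M21 (GRCm38).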

Additional observations from a re-analysis of the deposited data

How the results depend on the processing

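Of the genes tested, 417 passed; the count was 1770 with array weights, 143 with the replicate block, 1274 without the third library of both groups and 99 to 519 with 1 library left out. The split into higher and lower genes was 168 and 249, and it was 218 and 211 with the sum rescaled, 123 and 391 with median-of-ratios scaling and 131 and 336 with quantile normalization. The number of genes of the set that passed was 0 in all of these except with array weights, where it was 1 (Vegfa). The replicate numbers share only a number (deviations of same-numbered libraries correlated at -0.14, 0.079 and -0.13, and 4 of the 6 libraries correlated best with another number), and with the block Vegfd (limma adjusted p = 0.12), Foxo1 (0.054), Egln1 (0.091), Kcnj8 (0.072), Mcam (0.059), Cspg4 (0.058) and Alas2 (0.12) did not pass while Pgf did (0.037). With the sum rescaled, Vegfc was at 0.029 and Pecam1 at 0.021. With median-of-ratios scaling Flt1 was at -0.051, Cdh5 at -0.064 and Pgr at -0.019, with quantile normalization at -0.053, -0.028 and -0.0054, and with array weights Flt1 was at -0.047 and Cdh5 at -0.049. Without the third library of both groups Flt1 was at -0.10, Kdr at -0.095, Tek at -0.012 and Cdh5 at -0.13. With 1 library left out, the ranges that crossed 0 were -0.028 to 0.016 for Vegfc, -0.094 to 0.071 for Flt1, -0.025 to 0.31 for Kdr, -0.038 to 0.18 for Tek, -0.18 to 0.10 for Pecam1, -0.11 to 0.098 for Cdh5, -0.078 to 0.23 for Pgr and -0.24 to 0.070 for Klrd1, and against Pecam1 and Cdh5 -0.11 to 0.10 for Vegfc and -0.016 to 0.032 for Flt1. The cause of these changes was not tested. Vegfa, Flt4, Angpt2 and the 3 ratios kept their direction under each alternative run for them. Depth limits Angpt1 most, and 3 libraries a group limit the precision of every gene.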

Other observations

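Pericyte and mural cell genes, the partners of endothelium in the vessel wall, were measured in the same libraries. Of 12 listed, all of them tested, 3 fell and 0 rose, with a median log2 difference of 0.05. Groups stood apart in both directions, with every control exceeded for 4 of the 12 and undercut for the 3 that fell. The 4 were Pdgfrb (20.3 to 21.3 FPKM in controls, 23.1 to 24.9 FPKM in the other group), Rgs5, Higd1b and Heyl. None of the 4 passed (limma adjusted p 0.15 to 0.34), and they were named after their values were seen. Mcam, an adhesion molecule of mural and endothelial cells, was at 108 to 117 FPKM in the controls and 73.0 to 83.8 FPKM in the libraries labelled deficient (limma adjusted p = 0.021). Kcnj8, a potassium channel of pericytes, was at 18.3 to 19.9 and 12.7 to 13.5 FPKM (0.014), and Cspg4, the proteoglycan NG2, at 10.1 to 13.0 and 6.88 to 7.88 FPKM (0.038). Smooth muscle of the myometrium can express these genes too, and its part was not tested. Each lost its limma call without control 1, control 2 or deficient 1, with adjusted p up to 0.15. Mcam also lost it without control 3 (limma adjusted p = 0.051) and Kcnj8 without deficient 2 (0.053). Cspg4 also lost it without deficient 2 (0.094) or deficient 3 (0.066), after rescaling to equal sums (0.058) and with no filter (0.068).

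Genes of red blood cells were read as a further sign of blood in the tissue. Alas2, the enzyme that starts haem synthesis in red cell precursors, was at 2.77, 5.98 and 3.69 FPKM across the controls, against 23.9, 12.007 and 20.1 FPKM across the libraries labelled deficient and rose (limma adjusted p = 0.029, and 0.032 to 0.11 with 1 library left out, where it passed only without deficient 2). It also lost its call with no filter (0.056), with the replicate block (0.12) and without the third library of both groups (0.067). The haemoglobin genes Hba-a1, Hba-a2, Hbb-bs and Hbb-bt were listed at 0 in every library.

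Angptl1, an angiopoietin-like gene under the mean of 1 FPKM and chosen after its values were seen, was at 0.062, 0.050 and 0.087 FPKM across the controls, against 0.260, 0.597 and 0.569 FPKM across the libraries labelled deficient, with no test.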
